A study of Mus musculus with 4 samples.

Results

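A set of 7 genes of the cardiac progenitor programme were examined in chromatin accessibility data from mouse embryoid bodies. They were *Nkx2-5*, *Hand1*, *Hand2*, *Isl1*, *Mef2c*, *Myocd* and *Smarcd3*, 7 of the 21840 protein-coding genes in the annotation. Open regions were assigned to them when a peak lay within 1 kb of a transcription start site (TSS), the promoter, or within 100 kb of one. In all, 96 of the 80380 regions found in the series fell within 100 kb, and 10 of these 96 lay within 1 kb.

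Embryoid bodies are aggregates in which embryonic stem cells leave self-renewal and form early lineages. Stem cells of the E14Tg2A line were kept on inactivated mouse embryo fibroblasts with leukemia inhibitory factor (LIF) and the 2i inhibitors CHIR99021 and PD0325901, then grown as hanging drops in serum without LIF. Open DNA was tagged with adapters by a transposase (ATAC-seq), and this was performed on day 4 in 2 libraries of wild type (WT) and 2 of CTCF-K20R cells. In the latter, CRISPR/Cas9 editing had changed lysine 20 of CTCF, a DNA-binding protein that organizes chromatin loops, to arginine. K20R colonies were selected with a drug and checked by sequencing and Western blotting, and how many clones entered the libraries is not given in the sources used here.

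The heart forms from mesoderm whose cells switch on a set of transcription factors that bind regulatory DNA together and sustain each other. *Nkx2-5* encodes a homeodomain factor of the cardiac lineage, *Isl1* a LIM-homeodomain factor of the second heart field, and *Hand1* and *Hand2* basic helix-loop-helix factors of the ventricles. *Mef2c* encodes a MADS-box factor, *Myocd* (myocardin) a coactivator of serum response factor, and *Smarcd3* the BAF60c subunit that carries the BAF chromatin remodelling complex to cardiac genes. Each of these genes is used at a particular stage and place, and distal enhancers as well as promoters are known to control them.

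The 4 peak lists held 59783 and 66703 peaks in WT, against 51823 and 55832 in K20R. Since the lists were called separately, a peak was described by its percentile within its own list, ranked by the −log10 p of its summit, with 100 the strongest. The number of fragments stacked at a summit, the summit pileup, was recovered from each peak's fold and p, and its median was 25 and 33 in WT, against 29 and 38 in K20R. A region was common when all 4 lists had a peak in it. It was WT-restricted when both WT lists and neither K20R list had one, and K20R-restricted in the opposite case. Values of the genotypes were said not to overlap when both K20R values lay on the same side of both WT values. With 2 libraries against 2, an exact two-sided permutation test cannot give a p below 0.33, so no single gene or region could pass 0.05. In such bulk samples, fewer cells with an open region and a less open region in each cell cannot be told apart.

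Sequences of regions near the 7 genes that differed between the genotypes are shown first, chosen with their values known. Of these, 3 lie in WT-restricted regions, and 1 lies 9.34 kb upstream of *Nkx2-5* in a common region that ranked lower in K20R. They are 201 bases of the plus strand of mm10 around the summit of the strongest peak. Capitals mark matches to the GATA motif (the letters NGATAN with A or T first and A or G last, bound by GATA factors) on either strand. The *Hand2* sequence holds no match.
*Myocd* intron, chr11:65226739-65226939: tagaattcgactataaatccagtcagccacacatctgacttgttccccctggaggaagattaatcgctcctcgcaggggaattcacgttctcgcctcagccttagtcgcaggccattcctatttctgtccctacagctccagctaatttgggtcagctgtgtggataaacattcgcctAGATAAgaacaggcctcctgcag
*Hand1* upstream, chr11:57864706-57864906: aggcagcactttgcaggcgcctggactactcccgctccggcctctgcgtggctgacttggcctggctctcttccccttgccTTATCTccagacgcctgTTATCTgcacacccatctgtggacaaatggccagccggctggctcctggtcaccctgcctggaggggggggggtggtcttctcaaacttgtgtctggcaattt
*Hand2* promoter, chr8:57320334-57320534: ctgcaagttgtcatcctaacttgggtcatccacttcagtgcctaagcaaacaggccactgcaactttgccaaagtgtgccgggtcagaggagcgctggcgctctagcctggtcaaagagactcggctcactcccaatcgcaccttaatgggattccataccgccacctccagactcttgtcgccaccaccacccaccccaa
*Nkx2-5* near upstream, chr17:26850801-26851001: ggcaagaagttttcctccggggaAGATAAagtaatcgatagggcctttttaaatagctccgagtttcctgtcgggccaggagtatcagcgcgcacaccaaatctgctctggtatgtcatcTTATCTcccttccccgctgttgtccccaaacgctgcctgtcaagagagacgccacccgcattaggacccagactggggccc

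For 3 genes the promoter peak itself ranked lower in K20R, and the 200 bases that precede the outermost TSS of each are given in the direction of transcription, on the minus strand of mm10. Capitals mark a GATA match 54 bases upstream of the *Myocd* TSS and a match to TCF-LEF (CTTTGAA or CTTTGAT, bound by the WNT pathway's TCF and LEF factors) in *Hand1*. The *Hand1* stretch precedes the outer of 2 TSSs, while the summit of the promoter peak lay 37 bp upstream of the inner one. The 201 bases around that summit held no match to either motif. Of all protein-coding genes, 19.6% held a GATA match and 5.73% a TCF-LEF match in the 200 bases upstream of the gene's 5′ end.
*Myocd* promoter, chr11:65269990-65270189: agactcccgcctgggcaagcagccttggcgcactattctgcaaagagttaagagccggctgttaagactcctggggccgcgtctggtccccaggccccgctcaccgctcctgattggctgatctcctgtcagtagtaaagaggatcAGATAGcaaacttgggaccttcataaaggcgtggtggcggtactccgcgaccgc
*Hand1* promoter, chr11:57832819-57833018: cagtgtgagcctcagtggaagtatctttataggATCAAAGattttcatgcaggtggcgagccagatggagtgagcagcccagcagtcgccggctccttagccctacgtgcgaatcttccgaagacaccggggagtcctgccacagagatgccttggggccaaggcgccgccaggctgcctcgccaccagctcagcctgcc
*Nkx2-5* promoter, chr17:26841566-26841765: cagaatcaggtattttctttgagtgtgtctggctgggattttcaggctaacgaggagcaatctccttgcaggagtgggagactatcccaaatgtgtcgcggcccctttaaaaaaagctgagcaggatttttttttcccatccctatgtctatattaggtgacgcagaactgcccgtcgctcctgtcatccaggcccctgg

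All 7 genes had a promoter peak in all 4 lists. *Nkx2-5*, *Hand1* and *Myocd* ranked lower in both K20R libraries than in both WT libraries, *Mef2c* ranked higher, and the genotypes overlapped for *Hand2*, *Isl1* and *Smarcd3*. Among the 14480 protein-coding genes with a promoter peak in all 4 lists, 32.2% had both K20R values below the WT pair and 15.7% had both above it. The 3 lower promoters and 1 higher one of 7 are read beside that background.

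*Myocd* had the tightest replicates of the 7. Its promoter peak, whose summit lay 12 bp upstream of a TSS, stood at percentiles 93.3 and 93.2 in WT, against 83.5 and 83.6 in K20R. The genotype means were 93.2 ± 0.0824 and 83.6 ± 0.0939 (SD, n = 2 each, exact permutation p = 0.33). The summit pileups were 86 and 131 fragments in WT, against 63 and 98 in K20R. The pileup was deeper in replicate 2 of either genotype, and K20R was lower within both replicate numbers.

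*Nkx2-5* was at 66.7 and 65.0 in WT, against 55.4 and 52.6 in K20R, so that its K20R mean was lower by 11.8 points (65.8 ± 1.20 against 54.0 ± 2.01, SD, n = 2 each, exact permutation p = 0.33). Its pileups were 51 and 68 in WT, against 43 and 60 in K20R. *Hand1* was at 56.8 and 57.2 in WT, against 49.8 and 45.6 in K20R (57.0 ± 0.268 against 47.7 ± 2.95, exact permutation p = 0.33), with pileups of 54 and 78 against 41 and 59. For both genes the 2 WT libraries were closer to each other than to either K20R library.

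*Mef2c* went the other way. Its promoter peak stood at 60.3 and 65.6 in WT, against 68.9 and 68.3 in K20R, with pileups of 29 and 49 against 42 and 63 (exact permutation p = 0.33). This peak serves 5 of the 11 annotated TSSs of protein-coding *Mef2c* transcripts. No list had a peak within 1 kb of the 3 outermost TSSs, and at a pair of internal TSSs the first K20R library alone had a weak peak at percentile 20.4.

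*Isl1* had one of the strongest promoters of the group and did not separate by genotype, with percentiles of 88.6 and 91.7 in WT, against 88.6 and 92.3 in K20R. *Hand2* was at 53.9 and 60.1 in WT, against 65.5 and 56.0 in K20R, a spread within each genotype that covered the difference. *Smarcd3* was at 57.0 and 71.3 in WT, against 60.3 and 73.3 in K20R, where the second replicate was higher in either genotype. That value comes from a peak at its internal TSS. At its outermost TSS the percentiles were 56.6 and 61.5 in WT, against 55.3 and 54.5 in K20R, so that the genotypes did not overlap there on percentiles, but they did when ranked anew and on the pileup (level difference 0.01).

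**Figure D1:**
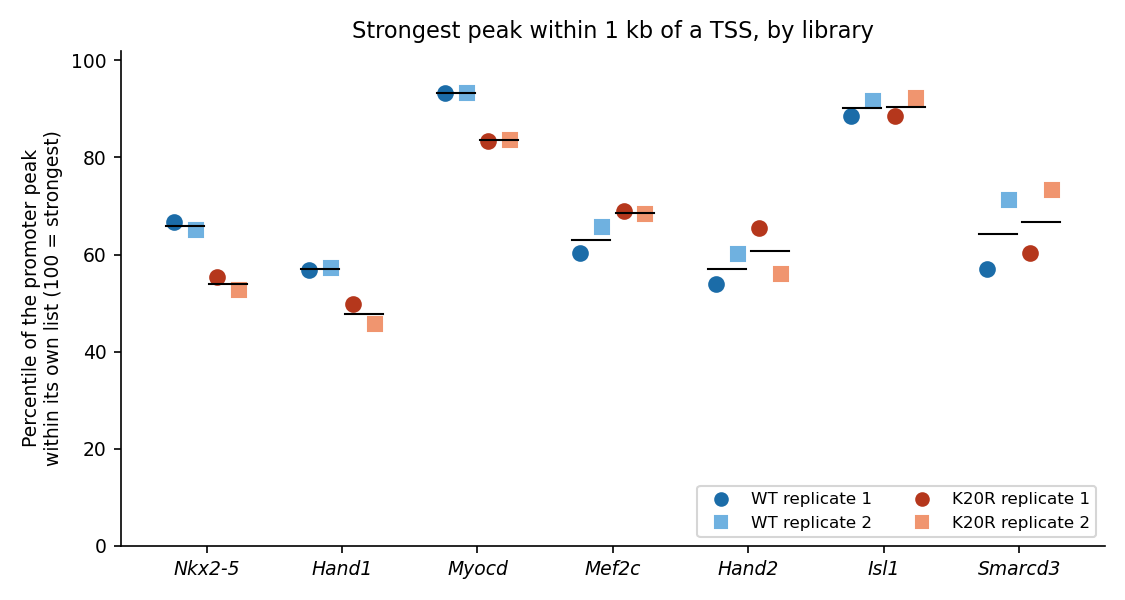
Percentile of the strongest promoter peak within its own peak list (vertical axis, 0 to 100, 100 strongest) for the 7 genes in 2 WT and 2 K20R libraries. Points are libraries and black lines are genotype means. Both K20R points lie below both WT points for *Nkx2-5*, *Hand1* and *Myocd*, and above them for *Mef2c*.

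These 4 calls were the same after the promoters were ranked anew among genes with a peak in all 4 lists, where 22.9% of all promoters were lower and 23.8% higher. They were also the same on the pileup relative to the library's median, where 24.2% were lower and 26.4% higher. Ranked by fold instead of p, *Nkx2-5* and *Myocd* were lower and *Mef2c*, *Hand2* and *Isl1* higher, beside 24.6% and 14.2% of all promoters. *Hand1* overlapped there, at 25.4 and 21.9 in WT, against 33.4 and 21.3 in K20R, with the K20R mean above the WT mean by 3.66 points. When every list was cut to its 51823 strongest peaks, a setting chosen after the data were seen, *Myocd* alone remained lower, at 92.3 and 91.2 in WT, against 83.5 and 82.3 in K20R. *Mef2c* and then also *Hand2* were higher, with 18.6% of all promoters lower and 29.6% higher. In that setting *Nkx2-5* was at 61.6 and 54.9 in WT, against 55.4 and 48.9 in K20R, and *Hand1* at 50.2 and 44.9 against 49.8 and 41.4, so that the genotypes overlapped for both.

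To see which other genes had a promoter like these, up to 3 protein-coding genes with the smallest summed difference over the 4 percentiles were taken for each gene whose genotypes did not overlap. For *Myocd* these were *Cage1*, *Riok1* and *Ttc25*, at summed differences of 1.35, 1.35 and 1.83 points. *Cage1* and *Riok1* had the same 4 values. *Nkx2-5* was nearest to *Trim11* and *Frmpd3* (3.03 and 4.64 points), *Hand1* to *Ano8*, *Bhlha9* and *Lipg* (6.97 to 7.73 points) and *Mef2c* to *Fbxw4*, *Nagpa* and *Rrad* (3.31 to 4.95 points). The likeness rests on 4 libraries only.

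Over the wider neighbourhoods, the 7 genes together had 75 and 84 peaks within 100 kb in WT, against 66 and 72 in K20R (79.5 ± 6.36 against 69 ± 4.24, SD, n = 2 each, exact permutation p = 0.33). *Nkx2-5* had 15 and 16 peaks in WT, against 14 and 12 in K20R, *Mef2c* 7 and 8 against 6 and 5, and *Myocd* 6 and 9 against 4 and 6. *Smarcd3* had 16 and 18 in WT, against 17 and 18 in K20R. When all lists were cut to the same number of peaks, the mean K20R count of all 7 genes was higher than the WT count by 1.5 peaks, so the direction depended on the length of the lists.

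The 96 regions divided into 53 common, 10 WT-restricted, 1 K20R-restricted and 32 with other patterns. WT-restricted regions made up 10.4% of them, and 10.4% of all regions in the series. The K20R-restricted region was 1.04% of them, beside 3.10% of all regions. Outside promoters of protein-coding genes the 7 genes had 8 WT-restricted regions of 74 and 1 K20R-restricted region, beside 12.4% and 3.61% of all such regions. With lists of equal length the counts became 4 and 3 of 83 regions, beside 8.04% and 6.29%. *Nkx2-5* had 4 of the WT-restricted regions, *Hand1* and *Myocd* 2 each, *Hand2* and *Smarcd3* 1 each, and *Isl1* and *Mef2c* none.

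**Figure D2:**
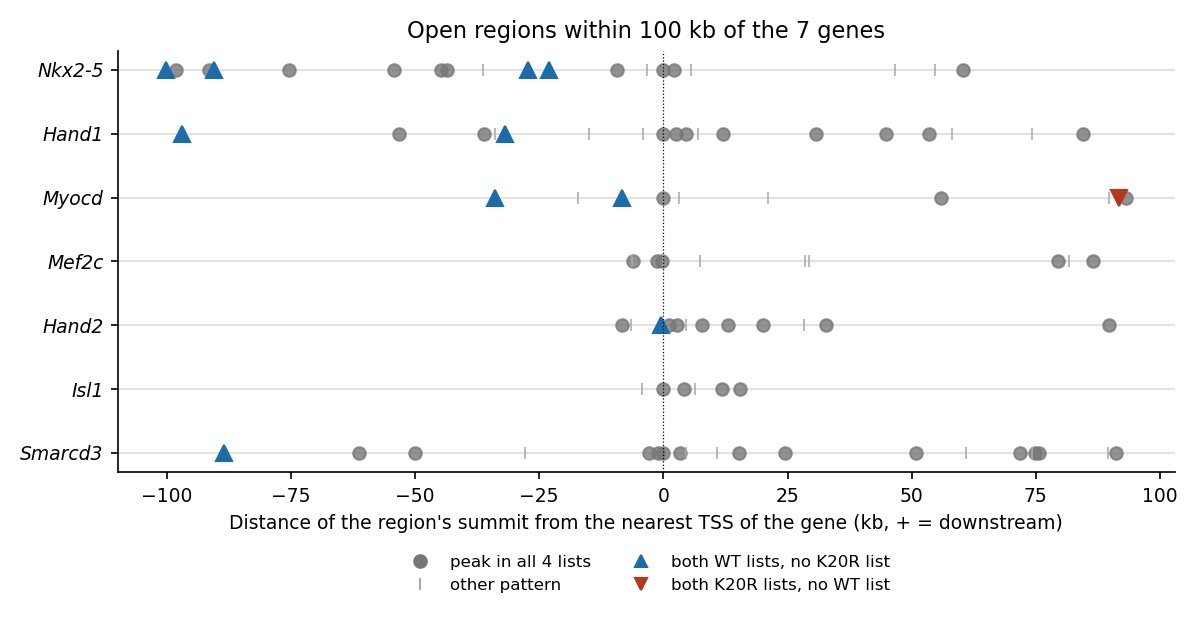
Open regions within 100 kb of each gene, placed by the distance of the region's summit from the nearest TSS of the gene in kb (horizontal axis, positive downstream). Circles are regions with a peak in all 4 lists, upward triangles the 10 WT-restricted regions, the downward triangle the K20R-restricted region of *Myocd*, and ticks all other patterns. *Nkx2-5* has 4 WT-restricted regions and *Isl1* and *Mef2c* have none.

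The absence of a peak has to be read with care, because called peaks had been taken out of each deposited list. The WT lists hold 51.7% and 50.5% of the numbers their peaks were given, against 58.6% and 60.8% in K20R. Where no number was missing between the neighbouring peaks in either K20R list, no called peak can have been removed, and this was so for 4 of the 10 WT-restricted regions. Among them were the *Myocd* intron, the *Hand1* upstream region and the *Hand2* promoter region.

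The *Myocd* intron region (chr11:65226082-65227269) was the strongest of the 10. It lay 8.28 kb upstream of the internal TSS, inside the gene, at percentiles 58.4 and 68.6 in WT. The summit pileups were 25 fragments (95% Poisson interval 16.2 to 36.9) and 43 (31.1 to 57.9), intervals that cover counting error only. The local background there was 3.25 and 3.51 fragments. Neither K20R list had a peak, and its sequence holds 1 GATA match. A further WT-restricted region 33.9 kb upstream of *Myocd* (chr11:65303728-65304005), in the noncoding gene *Gm12295*, was weaker, at 11.4 and 24.1, with 10 and 15 fragments.

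The *Hand1* region (chr11:57864699-57865034) lay 32.0 kb upstream in intergenic sequence, at 49.1 and 28.0 in WT with 22 and 21 fragments over a background of 3.63 and 4.62. The 2 GATA matches stand 17 bases apart in it, both on the minus strand. A second region, 97.0 kb upstream (chr11:57929541-57930001), was at 7.92 and 30.9, with up to 5 missing peak numbers in a K20R list.

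*Hand2* had its WT-restricted region 549 bp upstream of its TSS (chr8:57319511-57320451), at 13.4 and 16.5. Its 27 and 43 fragments stood on a high local background of 12.4 and 19.4, next to the broad common peak over the start of the gene. This small upstream peak is separate from the common one that gave the *Hand2* promoter value.

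Around *Nkx2-5*, a weak WT-restricted region lay 27.3 kb upstream within the noncoding gene *Gm17382* (8.87 and 2.23), and another in an intron of *Kifc5b* (25.3 and 30.9). The WT-restricted region of *Smarcd3* was in a coding exon of *Wdr86*, 88.4 kb upstream, at 19.3 and 16.5. The K20R-restricted region lay in an intron of *Arhgap44*, 91.8 kb downstream of *Myocd*'s nearest TSS, and was weak, at 2.65 and 6.94 with 9 and 11 fragments.

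Common regions allow the strength of a peak to be compared in all libraries. Of the 53, both K20R percentiles lay below both WT percentiles in 24 (45.3%) and above them in 9 (17.0%), beside 34.8% and 18.6% of all 38527 common regions. The median difference was −1.48 points, and −1.52 points over all common regions. The split depended on the scale. Ranked anew among common regions it was 15 lower and 13 higher, beside 25.5% and 29.2% of all. On the summit pileup relative to the library's median it was 19 lower and 18 higher, beside 23.7% and 35.6%. With lists of equal length 13 of 51 were lower and 18 higher, beside 22.6% and 33.1%.

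**Figure D3:**
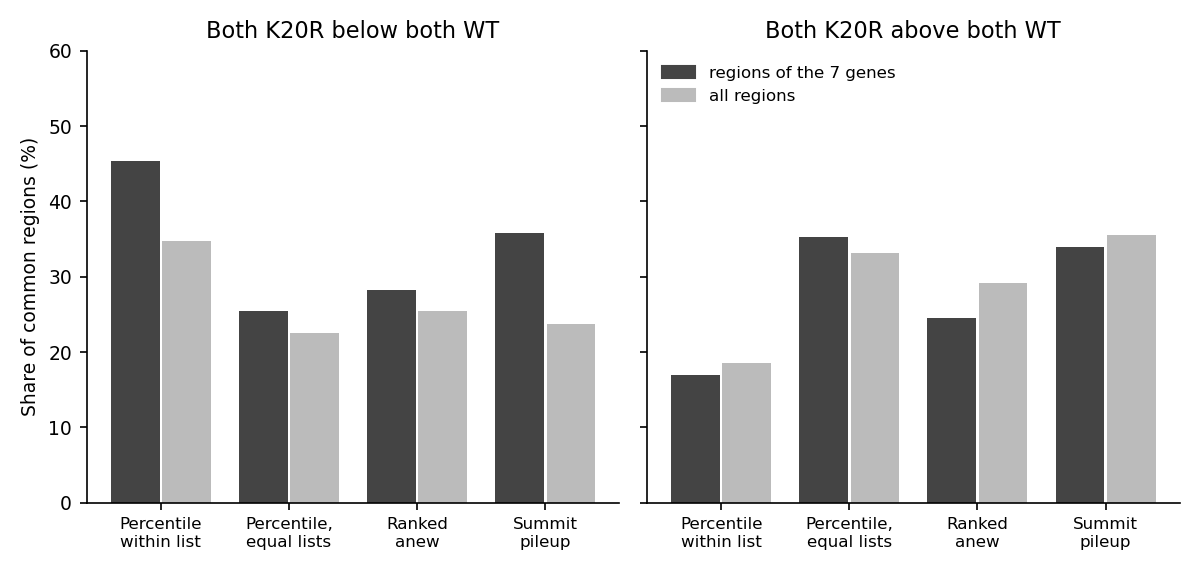
Share of common regions in percent (vertical axis) with both K20R values below (left) or above (right) both WT values, on 4 scales, for the regions of the 7 genes (dark bars) and all common regions (light bars). The dark bars for lower regions run from 25.5% to 45.3% and the light ones from 22.6% to 34.8%.

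Called alike on 3 scales (percentile, ranked anew and pileup), 13 of the 53 common regions (24.5%) were lower and 9 (17.0%) higher in K20R, beside 20.5% and 17.7% of all common regions. Calls for single regions were made on these 3 scales only. *Nkx2-5* had 3 lower and 2 higher of 10 common regions, and *Hand1* 3 lower and 0 higher of 10. *Hand2* had 3 lower and 1 higher of 8, *Myocd* 2 lower and 0 higher of 3, and *Isl1* 1 of each of 4. *Smarcd3* had 3 higher and none lower of 13, and *Mef2c* had 2 higher and 1 lower of 5. Below, a level is the log2 summit pileup relative to the library's median over common regions, and its difference is K20R minus WT.

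Near *Nkx2-5*, the largest difference lay 9.34 kb upstream (chr17:26849634-26851680), where the percentiles were 72.3 and 71.9 in WT, against 49.8 and 52.5 in K20R. The level difference was −0.73, with pileups of 46 and 65 against 27 and 43. Its summit holds 2 GATA matches. This region ranked above the promoter peak in both WT libraries. In K20R it ranked below it in the first library and at 52.5 against 52.6 in the second. Within the gene the region over the coding exon was at 43.7 and 41.9 in WT, against 49.4 and 52.6 in K20R, a level difference of 0.21. A region 3297 bp upstream of the coding TSS, next to the 5′ end of the annotated gene, had no peak in the first WT list, where no number was missing, and stood at 19.6 in the second WT library and at 52.2 and 36.9 in K20R. A region 44.7 kb upstream was also higher in K20R (70.7 and 64.6 against 74.2 and 76.3).

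For *Hand1*, the intergenic region just past the end of the gene, 4575 bp downstream of the TSS (chr11:57827009-57828368), went from WT values of 52.7 and 51.0 to K20R values of 18.4 and 23.3. The level difference was −0.82, and the pileups were 47 and 65 against 26 and 40. A region 36.1 kb upstream was at 59.2 and 60.8 in WT, against 43.6 and 44.9 in K20R (level difference −0.57). It lies near the WT-restricted region already shown. Of the 10 common regions of *Hand1*, 4 were lower and none higher on percentiles, beside 34.8% and 18.6% of all common regions. Ranked anew, 3 were lower and 1 higher, beside 25.5% and 29.2%. On the pileup 5 were lower and 4 higher, beside 23.7% and 35.6%.

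In the *Hand2* intron (chr8:57323310-57323939) the percentiles were 56.2 and 62.6 in WT, against 34.0 and 32.9 in K20R, with a level difference of −0.59. The strongest common region of the gene outside its promoter, 32.8 kb downstream in the noncoding gene *5033428I22Rik*, was at 88.9 and 91.0 against 80.4 and 85.6. A region 89.6 kb downstream, nearest to *Scrg1*, had the highest level difference of the 53, 0.94, with 41.8 and 40.7 in WT, against 56.9 and 67.8 in K20R. Common regions in the surrounding 2 Mb on either side of *Hand2*, outside its 100 kb, had a median level difference of 0.20 over 22 regions, also in the direction of K20R. Its part in that difference was not tested.

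*Isl1* had 4 common regions, all within 16 kb of its TSSs. The 2 that separated by genotype on these 3 scales lay side by side downstream of the gene: one 15.4 kb from the TSS was at 71.5 and 74.5 in WT, against 57.6 and 67.1 in K20R, and the next, 11.9 kb away, at 57.0 and 67.9 against 71.4 and 74.3. The 2 other regions, one over a coding exon and one 4276 bp upstream, had peaks in both WT lists and the second K20R list only.

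*Mef2c* was higher in K20R at its promoter and at the intron region 6125 bp upstream of the TSSs with a promoter peak, its strongest outside the promoter (70.8 and 66.7 in WT, 73.9 and 74.8 in K20R, level difference 0.42). Far inside the gene, 86.5 kb downstream of an internal TSS, a region was lower, at 50.7 and 57.4 against 31.9 and 27.3. Of the 11 regions of *Mef2c*, 6 had a peak in 1 library only, each at percentile 20.4 or less.

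*Myocd* had 3 common regions and all ranked lower in K20R on percentiles, beside 34.8% of all common regions. Besides the promoter, an intron region of *Arhgap44* 93.3 kb downstream went from WT values of 37.3 and 45.2 to K20R values of 2.65 and 16.2 (level difference −0.85), at shallow pileups of 16 and 24 against 9 and 14. The *Arhgap44* promoter, the strongest outside that of *Myocd*, was at 86.9 and 83.5 against 74.7 and 81.5, but overlapped on the other 2 scales.

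*Smarcd3* lies in a gene-dense stretch, and 7 of its 20 regions were promoters of other genes. Its strongest region outside its own promoter was the *Nub1* promoter, at 99.8 and 99.9 in WT, against 99.8 and 99.7 in K20R. The regions higher in K20R on the same 3 scales were all far downstream, with level differences of 0.91 in an intron of *Gbx1* (35.9 and 32.8 against 54.0 and 58.0), 0.89 in *4931409K22Rik* and 0.28 at a *Gbx1* promoter. Among regions inside *Smarcd3*, none separated on all 3 scales.

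The strongest common regions outside the promoter were at other genes for *Nkx2-5* and *Hand1* as well. *Nkx2-5* had the *Cuta* promoter, at 99.6 and 98.6 in WT, against 98.1 and 97.1 in K20R. *Hand1* had the *Sap30l* promoter, at 93.3 and 92.1 against 93.0 and 92.5, where the genotypes overlapped.

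**Figure D4:**
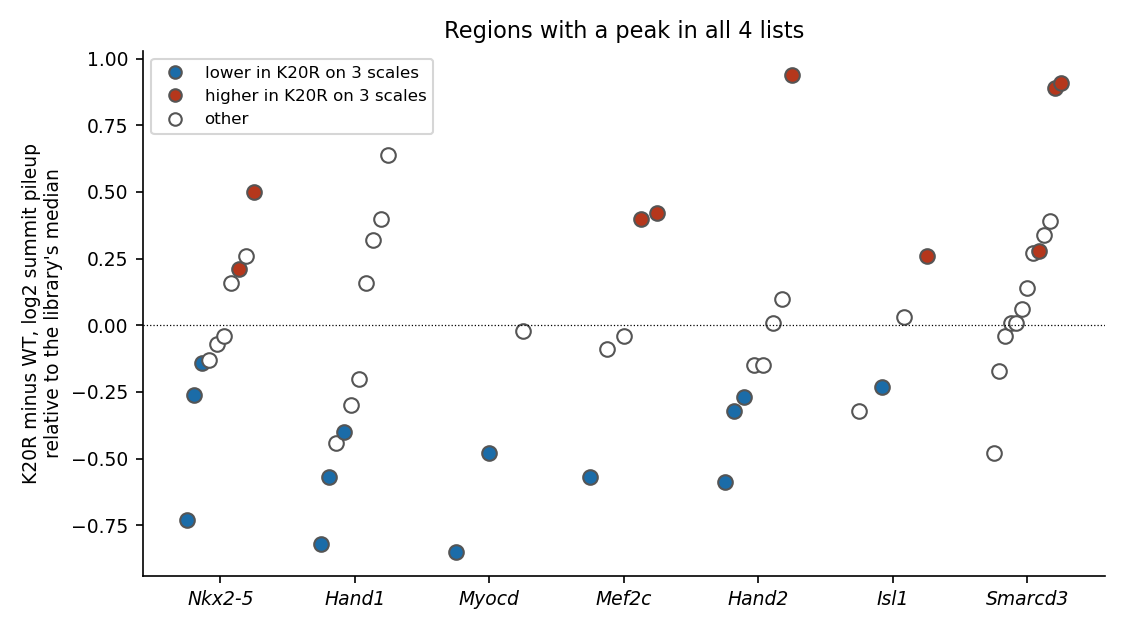
Difference in level, K20R minus WT, in log2 summit pileup relative to the library's median (vertical axis), for each of the 53 common regions of the 7 genes, 1 point per region. Blue points were lower and red points higher in K20R on 3 scales. *Hand1* and *Myocd* have the lowest points, at −0.82 and −0.85, and *Hand2* and *Smarcd3* the highest, at 0.94 and 0.91.

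Motif matches were counted in the 201 bases around each summit. GATA matches occurred in 28 of the 96 regions (29.2%), beside 21.4% of all regions in the series. They were in 5 of the 10 WT-restricted regions, and in 32.3% of all WT-restricted regions. Of the 10 common regions with a GATA match, 6 were lower in K20R on percentiles, 1 was higher and 3 overlapped, and on the pileup 5 were lower, 1 was higher and 4 overlapped. Over all common regions, with or without a match, 34.8% were lower on percentiles and 23.7% on the pileup. NK2 matches (TCAAGTG or TTAAGTG, bound by NKX2 factors) were in 6 regions (beside 3.97% of all), TCF-LEF matches in 11 (beside 6.47%), and no region held the T-box sequence TCACACCT (1.27% of all) or the MEF2 motif (1.22%). The CTCF motif, of interest because CTCF is the mutated protein, was in 5 regions (5.21%, beside 6.02% of all), and all 5 were common.

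The 5 regions with a CTCF match did not move together. The one in an intron of *Galnt10*, 53.6 kb downstream of *Hand1*, was at 61.1 and 60.8 in WT, against 39.4 and 44.2 in K20R. The one 11.9 kb downstream of *Hand1* was at 24.1 and 58.1 against 47.0 and 63.5. There the genotypes overlapped on percentiles and ranked anew, but K20R was higher on the pileup (level difference 0.64). The coding exon of *Smarcd3* was at 68.2 and 54.8 against 53.5 and 53.1, lower on percentiles but overlapping when ranked anew and on the pileup. The genotypes overlapped on all 3 scales at the region 54.2 kb upstream of *Nkx2-5* and at the *Mef2c* intron region. A match describes letters and does not show that CTCF was bound.

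The other genes of the cardiac programme were taken from a list of 22 genes, called partners here. Of these, 21 had a promoter peak in all 4 lists, and 10 were lower, 3 higher and 8 overlapped, beside 32.2% lower and 15.7% higher of all genes. The median difference was −3.20 points, and −0.824 over all genes. On the pileup scale 12 were lower and 1 was higher, beside 24.2% and 26.4% of all. *Smyd1*, the partner without a promoter peak in all 4 lists, had weak ones in both K20R lists (15.8 and 1.52) and none in WT. *Gata6* and *Gata4*, which encode zinc-finger factors that work with NKX2-5, were at 83.5 and 88.2 against 56.5 and 66.0, and at 80.2 and 71.1 against 52.1 and 58.9. *Fgf8*, a growth factor of the second heart field, was at 69.4 and 66.3 against 58.9 and 48.9. *Mesp1*, which marks the earliest cardiac mesoderm, was higher on percentiles, at 43.5 and 43.4 against 67.3 and 72.4, but lower on the relative pileup, with 50 and 71 fragments in WT, against 47 and 72 in K20R.

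Among 11 paralogs and cofactors, 10 had a promoter peak in all 4 lists. Of these, 2 were lower, 2 higher and 6 overlapped, beside 32.2% lower and 15.7% higher of all genes. Ranked anew, 0 were lower and 3 higher, beside 22.9% and 23.8% of all. *Nkx2-6* had no promoter peak in any list. *Mef2a* and *Mef2d*, paralogs of *Mef2c*, were lower by 4.36 and 2.92 points on percentiles. Both were also lower on the pileup but overlapped when ranked anew. *Mef2b* was at 89.3 and 96.2 in WT, against 96.5 and 98.8 in K20R. *Smarcd2*, the paralog of *Smarcd3*, was at 96.2 and 94.2 against 97.5 and 96.6. Of 6 other BAF subunits 3 were lower (*Smarce1*, *Arid1a* and *Smarcc1*), and none was higher on percentiles, beside the same 32.2% and 15.7%. On the pileup scale *Arid1a* was lower and *Smarcb1* higher. Of 4 sarcomere genes, which working cardiomyocytes use, *Tnnt2* had weak peaks in WT at 20.3 and 32.8 and a peak in the first K20R list at 0.102. *Myh6* had a peak in the second WT list only. *Actn2* was at 98.7 and 99.5 against 98.1 and 98.4, but overlapped on the pileup. *Myl7* overlapped on percentiles and on the pileup, but was higher when ranked anew.

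Promoters of marker genes were read as a check of what the embryoid bodies held. The early mesoderm genes *T*, *Eomes* and *Mixl1* had promoter peaks in all 4 lists. *T* was at 83.1 and 82.8 in WT, against 66.7 and 65.6 in K20R, *Mixl1* was lower by 4.11 points, and *Eomes* was higher on percentiles and overlapped on the pileup. The pluripotency gene *Pou5f1* was at 77.9 and 79.3 against 84.9 and 87.7, and *Nanog* at 73.7 and 82.5 against 72.1 and 68.5, lower except when ranked anew. All 4 fibroblast genes were also open in every library, with percentiles from 50.3 to 94.3 in WT and from 50.2 to 85.2 in K20R. *Thy1* was lower in K20R and the other 3 overlapped on percentiles, but *Col1a2* was higher when ranked anew. The part of any of these markers in the differences at the 7 genes was not tested.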

How the data were processed

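ATAC-seq peak lists of 2 WT and 2 K20R libraries were analysed, with genotype and replicate number taken from the labels. According to the study's methods, adaptors were trimmed with Trim_Galore, reads were aligned to mm10 with bowtie2 (v2.2.5), low-quality, duplicate (sambamba, v0.6.7) and blacklisted reads were dropped, and peaks were called with MACS2 (v2.1.0). Of each peak the authors deposited a whole-number score, a fold over local background (a ratio), and the −log10 p and −log10 q of the summit. No counts or reads were used here, so no count model was fitted, and depth is known only through pileups.

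Peaks sharing at least 1 bp were merged into regions. TSSs were those of all protein-coding transcripts in GENCODE vM21 basic, whose genome has the same build as the lists. The pileup n and background were solved from fold = (n + 1)/(background + 1) and the Poisson tail. This gave whole pileups within 0.05 fragments for 100.00% of the peaks solved in every list. The p was too small to solve for 1 and 2 peaks in WT and for 1 and 24 in K20R. The procedure was checked on simulated data. Calls compared both K20R with both WT values, and differences of means used an exact two-sided permutation test. The replicates are described as biological, but nothing says that equal numbers share a batch.

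The 7 genes, the gene lists and the motifs were chosen with earlier results of these data known. Named were the 7 genes, their promoter and restricted regions, the strongest common region outside each promoter, other common regions chosen after their values were seen, up to 4 non-overlapping genes per list, and up to 3 nearest promoters. Some items the rule names are not reported here. Motifs were exact matches on both strands within 100 bp of the summit. Analyses used Python 3.11.15, numpy 2.4.6, pandas 2.3.3 and scipy 1.17.1. Alternatives were another q threshold, window, TSS, overlap, ranking, lists of equal length and leaving out each library.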

Additional observations from a re-analysis of the deposited data

How the results depend on the processing

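Depth limits weak peaks most, since a pileup of 9 to 20 fragments has a wide counting interval, and 2 libraries a genotype allow no p under 0.33.

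Promoters were not run under another q threshold, region window or overlap rule. Of the alternatives run for them, 3 changed which promoters were lower. From the gene's 5′ end *Nkx2-5* and *Mef2c* lacked a value in all 4 lists together and were not called. *Mef2c* had no peak there in any list. *Nkx2-5* had none in the first WT list, and stood at 19.6 in the second, against 52.2 and 36.9 in K20R. *Smarcd3* was lower in this setting, which gave 3 lower and 0 higher. Ranked by fold, *Hand1* was reversed, at 3.66 points, with 2 lower and 3 higher promoters. Cutting all lists to the same number of peaks, added after the data were seen, left 1 lower and 2 higher. Within 2 kb the count of higher promoters was 0, with *Mef2c* at 1.18 points. The replicate block, K20R against WT within both replicate numbers, gave 3 lower and 3 higher promoters, and 27 lower and 15 higher common regions. This rule asks less than the main one, and its shares over all promoters and all common regions were not computed. Leaving out a library gave 3 lower in every case and 1 to 4 higher, with 4 without WT replicate 2.

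Common regions numbered 13 lower and 18 higher with lists of equal length, 15 lower and 13 higher ranked anew, 16 lower and 15 higher ranked by fold, 19 lower and 18 higher on the pileup (added after the data were seen), 41 and 16 within 200 kb, and 5 higher within 50 kb. Leaving out a library gave 28 to 32 lower and 13 to 18 higher. Shares over all regions were not computed for the ranking by fold, the q threshold or leaving out a library. WT-restricted regions numbered 6 at a −log10 q of at least 5, 4 with lists of equal length, 6 within 50 kb, 18 within 200 kb and 12 to 17 without 1 library (17 without WT replicate 1). K20R-restricted regions numbered 3 with lists of equal length, 0 within 50 kb, 2 within 200 kb, 0 from the gene's 5′ end and 2 to 6 without 1 library. The difference in peaks within 100 kb, −10.5, was 1.5 with lists of equal length, −19 within 200 kb and −15 to −6 without 1 library. Windows change how many regions are counted by their construction. Leaving out a library also eases every call by construction, since fewer libraries then have to agree. The cause of the other changes was not tested.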
